A study of Bos taurus with 20 samples.

Results

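The phagocyte NADPH oxidase and the enzymes that dispose of its products were examined in maternal blood through 9 genes. Of these, 5 encode parts of the oxidase (CYBA, CYBB, NCF1, NCF4 and RAC2) and 4 encode antioxidant enzymes (SOD1, SOD2, CAT and GPX1). They were chosen by name from knowledge of the pathway and matched to the Entrez identifiers of the count data through the NCBI cattle gene table, and all 9 were found among the 37063 genes counted. Whole blood was drawn at day 63 of gestation from 20 cows, each a recipient of 1 in vitro produced embryo of a beef breed carrying a female fetus. The paper's methods describe the recipients as lactating dairy cows, while its summary of the data lists them as Angus, aged 1 to 9 years. The labels used here give neither breed nor age of each cow. The tubes used for collection break open the cells and keep their RNA stable, and each cow gave 1 sequenced library. All cows formed a single group with no untreated or open animals, and the variable recorded for each was the birth weight (BW) of its calf, which averaged 45.0 ± 10.1 kg (SD, n = 20). The labels name no sequencing batch and no blood cell count, so the cell makeup of each sample was seen only through marker transcripts.

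In neutrophils, monocytes and other phagocytes the oxidase moves electrons from NADPH across a membrane to oxygen and so makes superoxide. CYBB is the catalytic chain and CYBA its smaller membrane partner, while subunits such as NCF1 and NCF4 wait in the cytosol and join them with the GTPase RAC2 when the cell is activated. Superoxide dismutases turn superoxide into hydrogen peroxide, in the cytosol (SOD1) or in mitochondria (SOD2), and catalase (CAT, in peroxisomes) and glutathione peroxidase (GPX1, a selenium enzyme) then remove the peroxide. NADPH is needed on both sides, as fuel for the oxidase and to regenerate glutathione, and much of it comes from the pentose phosphate pathway.

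Total counts per cow ran from 24632077 to 39892111 with a median of 33412740, and the lowest count of any of the 9 genes in any cow was 1016, so counting error was small beside the differences between cows. Levels are given as CPM, the counts scaled to the size of each library with TMM factors, which depend on transcript length, so the genes are not ranked against each other. Marker transcripts of neutrophils, monocytes, platelets, B cells, T cells and natural killer cells were present in all libraries. Among the markers with a zero count in every cow were CX3CR1 of monocytes, CCR3 and ALOX15 of eosinophils and GZMA of natural killer cells, and IL5RA was the only eosinophil marker that could be measured. The library from the cow of the 56 kg calf lay at the end of the range for several markers. It had the lowest summed CPM of the 20 cows for neutrophil markers (2580), monocyte markers (601) and NF-kB target genes (655). It also had the highest level of IL5RA (199.9 CPM). The cows of the 45 and 46 kg calves came next for neutrophil markers (2930 and 3082) and monocyte markers (876 and 682). The eosinophil markers summed to 196 CPM in the 56 kg calf's cow and to 146 CPM in that of the 46 kg calf, the next highest. Leaving out the 56 kg calf's cow alone keeps these other cows in the fit. The slopes of the 9 genes are also given without the 56 kg calf's cow, as are some of the other slopes and relations.

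All 5 oxidase genes were expressed in every cow, with limited spread. CYBB, the catalytic chain, ran from 279 CPM to 357 CPM with a median of 313 CPM, and its coefficient of variation over the 20 cows was 7.30%. CYBA ran from 108 CPM through a median of 127 CPM to 165 CPM, with a coefficient of variation of 11.4%. The highest value of CYBA was that of the cow with the 50 kg calf, and the next cow had 155.5 CPM. NCF1, the cytosolic organiser that carries the activating phosphorylation sites, had a lowest level of 293 CPM, a median of 369 CPM and a highest level of 460.5 CPM. The level of RAC2, the Rac GTPase of blood cells, was between 98.8 and 146.9 CPM with a median of 121 CPM. For RAC2 the cow of the 49.5 kg calf was lowest and the cow of the 50 kg calf highest, which were the same cows at the ends of the range of CYBA.

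NCF4, the cytosolic subunit that binds a phosphoinositide of the phagosome membrane, was the oxidase gene with the widest ratio between cows. Its level was 39.5 CPM in the 56 kg calf's cow, which was the lowest, against a median of 64.5 CPM and a highest level of 79.1 CPM in the cow of the 43 kg calf. The next lowest cow had 54.2 CPM, so the low end of NCF4 was a single animal.

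The antioxidant genes ranged from the steadiest to the most variable of the 9. CAT had a lowest level of 48.9 CPM, a median of 53.0 CPM and a highest level of 58.7 CPM, and its coefficient of variation was 5.49%. The biological coefficient of variation that edgeR estimated for CAT was below that of all but 6.78% of the genes tested. SOD1 was likewise steady, from 68.5 CPM through a median of 79.7 CPM to 89.5 CPM. SOD2, the mitochondrial dismutase, ran from 74.4 CPM in the cow of the 72.5 kg calf through a median of 133 CPM to 188 CPM in the cow of the 38 kg calf. Its coefficient of variation was 23.9%, and 61.9% of genes had a lower biological coefficient of variation. GPX1 ran from 239.5 CPM through a median of 354 CPM to 484 CPM, and its highest value belonged to the cow of the 50 kg calf, which was also highest for CYBA, NCF1 and RAC2. The levels did not track sequencing depth closely, since the Pearson correlation with the log2 total count was between -0.28 (CYBB) and 0.24 (CAT) across the 20 cows.

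**Figure D1:**
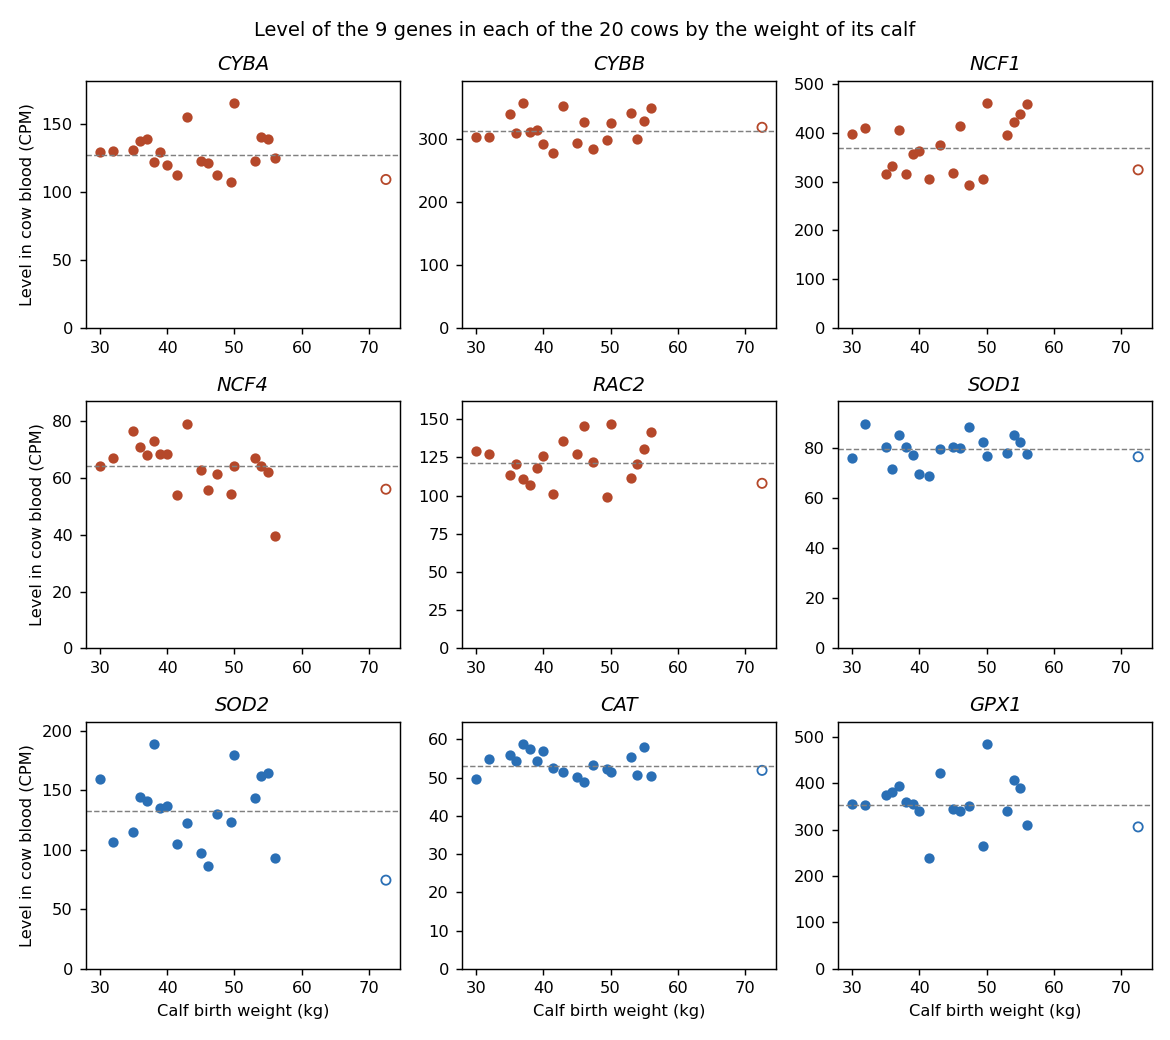
Level of each gene (CPM, linear axis from 0) in the blood of the 20 cows, plotted against the BW of the calf (kg), with oxidase genes in red, antioxidant genes in blue and the median as a dashed line. The open circle is the cow of the 72.5 kg calf. The points of CAT and SOD1 lie close to the line, those of SOD2 spread from 74.4 to 188 CPM, and the lowest point of NCF4 (39.5 CPM) belongs to the 56 kg calf's cow.

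Whether the level of the oxidase and antioxidant genes was related to calf BW was examined in 19 cows, the animal with the 72.5 kg calf being left out. None of the 9 genes was associated with BW in edgeR's quasi-likelihood test after Benjamini-Hochberg adjustment over 16206 genes, and DESeq2 and limma with voom also called 0 of the 9. Over all genes tested edgeR called 0.0%, with a smallest adjusted p of 0.0753, while DESeq2 called 189 of 23087 genes. At an unadjusted p under 0.05 edgeR passed 1 of the 9, NCF4, against 13.9% of all genes. The slope was positive for 5 of the 9 genes and for 46.6% of all genes, and the median slope was 0.12% per 10 kg for the 9 and -0.50% per 10 kg for all genes.

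NCF4 had a slope of -0.14 ± 0.055 (SE) on the log2 scale per 10 kg of BW, or -9.50% (95% interval -16.4 to -2.06%). The unadjusted p was 0.0158 and the adjusted p 0.248 in edgeR's quasi-likelihood test, and the adjusted p ran from 0.173 to 0.747 over the alternatives. The cows of the 5 lightest calves, of 30 to 37 kg, all lay at or above the median of 64.5 CPM for NCF4. Among cows of calves of 50 kg and more, that of the 53 kg calf was above it (67.0 CPM). The cow of the 50 kg calf lay at it (64.5 CPM). Those of the 54, 55, 56 and 72.5 kg calves were below it (64.1, 62.1, 39.5 and 56.1 CPM). Without the 56 kg calf's cow the slope was -5.73% per 10 kg, with an unadjusted p of 0.0720 and an adjusted p of 0.547 in the same edgeR test. With the monocyte marker score as a covariate the slope was -5.87% per 10 kg (unadjusted p = 0.0282 by edgeR), and with the level of IL5RA as a covariate it was -6.33% (unadjusted p = 0.131 by edgeR). IL5RA, a receptor chain for interleukin-5 found on eosinophils, itself had a slope of 44.5% per 10 kg (unadjusted p = 0.0102, adjusted p = 0.216 by edgeR). Its slope without the 56 kg calf's cow, in which its level was highest, is not given here. Over all genes tested, 2247 had an unadjusted p under 0.05 by edgeR. The number was 1605 without the 56 kg calf's cow and 1250 with IL5RA as a covariate.

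The other oxidase genes gave no relation that could be told from 0. NCF1 had a slope of 5.90% per 10 kg (95% interval -2.07 to 14.5%, adjusted p = 0.532 by edgeR), of the opposite sign to NCF4. With IL5RA as a covariate the slope of NCF1 was -0.23% per 10 kg. For RAC2 the slope was 2.7% (-3.69 to 9.51%), for CYBB 1.06% (-3.48 to 5.81%) and for CYBA 0.12% (-6.18 to 6.85%). Without the 56 kg calf's cow the slopes were 4.15% for NCF1, 1.28% for RAC2, 0.019% for CYBB and 0.77% for CYBA. These intervals leave room for a difference of several percent per 10 kg in either direction.

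The antioxidant genes likewise had intervals that span 0. For CAT the slope was -1.86% per 10 kg (95% interval -5.66 to 2.09%) and for SOD1 it was 0.69% (-3.78 to 5.36%). SOD2 gave -0.20% (-12.1 to 13.3%) and GPX1 -0.13% (-8.67 to 9.21%). With the cow of the 72.5 kg calf included, in which SOD2 was lowest, the slope of SOD2 was -6.89%. Without the 56 kg calf's cow the slopes were -1.24% for CAT, 1.27% for SOD1, 3.68% for SOD2 and 1.75% for GPX1. The intervals of CAT and SOD1 were the narrowest with that of CYBB, and the interval of SOD2 was the widest of the 9.

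**Figure D2:**
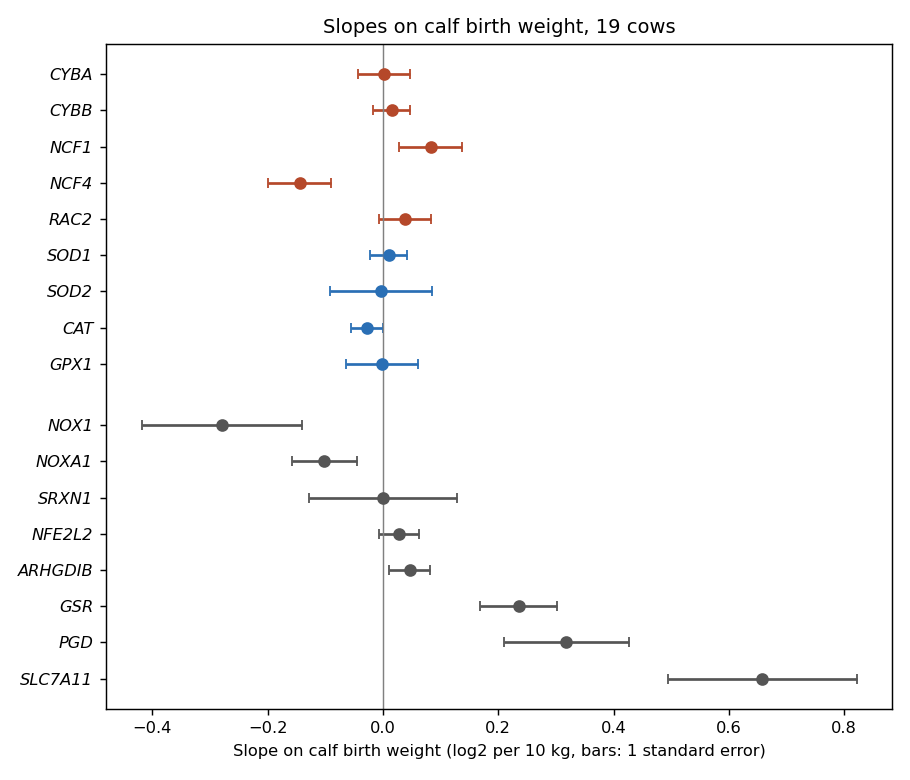
Slope on calf BW (log2 change per 10 kg, horizontal axis) for the 9 genes (red, oxidase; blue, antioxidant) and for the named genes of the wider pathway (grey), with bars of 1 SE from edgeR in 19 cows. The bars of NCF4, NOX1 and NOXA1 lie wholly below 0, those of NCF1, ARHGDIB, GSR, PGD and SLC7A11 lie wholly above it, and no gene passed the adjusted threshold in edgeR.

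Genes of the wider pathway were taken from 5 lists of oxidase partners, other NOX oxidases, NADPH supply, peroxide and thiol enzymes, and the NRF2 pathway. Of the 53 listed genes 47 could be tested. The other 6, NOX4, DUOX1, DUOX2, DUOXA1, DUOXA2 and GPX8, had at most 12 counts in any cow. None of the 47 passed the adjusted threshold in edgeR, and 7 had an unadjusted p under 0.05, which is 14.9% of them against the 13.9% of all genes given above. All 7 slopes were positive, while over the 47 genes 24 were positive and over all genes with an unadjusted p under 0.05 by edgeR 1099 of 2247 were. The 7 included PGD and TALDO1 among the 8 NADPH supply genes, GSR and GLRX2 among the 21 peroxide and thiol enzymes tested, and SLC7A11 and BACH1 among the 6 NRF2 genes.

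SLC7A11, which imports cystine for glutathione synthesis, had a lowest level of 2.51 CPM, a median of 7.20 CPM and a highest level of 21.1 CPM in the 56 kg calf's cow. Its slope was 57.8% per 10 kg with an adjusted p of 0.111 in edgeR, and DESeq2 called it with an adjusted p of 0.0163, in a range of 0.0163 to 0.498 over the alternatives. GSR, glutathione reductase, ran from 32.9 CPM through a median of 46.3 CPM to 79.6 CPM and had a slope of 17.7% (adjusted p = 0.158 by edgeR). PGD, the second NADPH-making enzyme of the pentose phosphate pathway, ran from 209.5 CPM through a median of 421 CPM to 728 CPM, and its slope was 24.7% (adjusted p = 0.208 by edgeR). In SLC7A11, GSR and PGD the highest level belonged to the 56 kg calf's cow, and without this cow the slopes were 45.7%, 11.5% and 18.7%.

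With the level of IL5RA as a covariate, the slope of PGD was 2.74%, that of GSR 5.24% and that of SLC7A11 22.5% per 10 kg. Over all 16206 genes, 1250 had an unadjusted p under 0.05 by edgeR with this covariate and 2247 without it. The slopes of TALDO1, GLRX2 and BACH1 were 5.73%, 5.33% and 6.32% per 10 kg (unadjusted p = 0.0466, 0.0241 and 0.0154 by edgeR). They were 1.37%, 7.32% and 6.66% with IL5RA as a covariate and 2.0%, 2.92% and 4.76% in all 20 cows. The most abundant member of each list by CPM was ARHGDIB, NOXA1, PGD, SRXN1 and NFE2L2 in turn. Apart from PGD these gave unadjusted p-values of 0.203, 0.0855, 0.999 and 0.436 in edgeR. NOX1, the colonic oxidase, was close to the low end of the counts at a median of 2.30 CPM and had a slope of -17.6% (unadjusted p = 0.0582 by edgeR), which was -2.45% with the cow of the 72.5 kg calf included.

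Co-variation of the 9 genes was measured across all 20 cows as the correlation of log2 CPM, with a permutation test of each gene against all 16268 other genes and Benjamini-Hochberg adjustment over those genes. Of the 36 pairs 1 was called, CYBA with GPX1. The other relations were weaker. A correlation was positive in 30 of the 36 pairs, and the 13 pairs with an unadjusted permutation p under 0.05 were all positive. Such a p was common over all 16268 other genes, in either direction, from 7.32% of them with CYBB to 27.3% with GPX1. The share of positive correlations over all genes was not computed.

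CYBA and GPX1 had a Pearson correlation of 0.87 (adjusted permutation p = 0.00173) and by rank one of 0.90. The unadjusted permutation p was 1e-05 in both cases, the lowest value possible with 100000 resamples. Leaving out the 2 cows farthest from the median of CYBA gave 0.81, and without the 56 kg calf's cow it was 0.88. The membrane chain of the oxidase and the peroxidase were thus high in the same cows, among them those of the 50 and 43 kg calves, and low in the same cows, among them those of the 49.5 and 41.5 kg calves. Many genes shared this pattern, however, since CYBA was correlated at the same threshold with 10% of all genes and GPX1 with 14%.

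Within the oxidase, the pair with the highest correlation was NCF1 with RAC2, at 0.68 (permutation p = 0.00098, adjusted p = 0.0584), and its rank correlation (Spearman) was 0.70 (permutation p = 0.00078). Without the 2 farthest cows it was 0.69. CYBA gave 0.63 with NCF1 (adjusted permutation p = 0.100), 0.57 with RAC2 (adjusted permutation p = 0.0866) and 0.50 with CYBB, its partner in the membrane (adjusted permutation p = 0.635). NCF4 did not follow the other cytosolic subunit, with a correlation of -0.19 with NCF1 (permutation p = 0.445), and was at -0.11 with RAC2, a gene on the same chromosome with 11 genes between them in the ARS-UCD2.0 gene table. NCF4 reached 0.57 with GPX1 (adjusted permutation p = 0.0987).

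No pair of antioxidant genes was called. The highest value was 0.54 for SOD2 with GPX1 (permutation p = 0.0131, adjusted p = 0.245). Its Spearman correlation was 0.65 (permutation p = 0.00261), and without the 2 farthest cows the Pearson correlation was 0.55. SOD2 with CAT gave 0.43 (permutation p = 0.0599). The 2 dismutases, SOD1 and SOD2, had a correlation of 0.05 (permutation p = 0.842). SOD1 had no unadjusted permutation p under 0.05 with any of the other 8 genes. The lowest value of all pairs was -0.40, for RAC2 with CAT (permutation p = 0.0809).

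**Figure D3:**
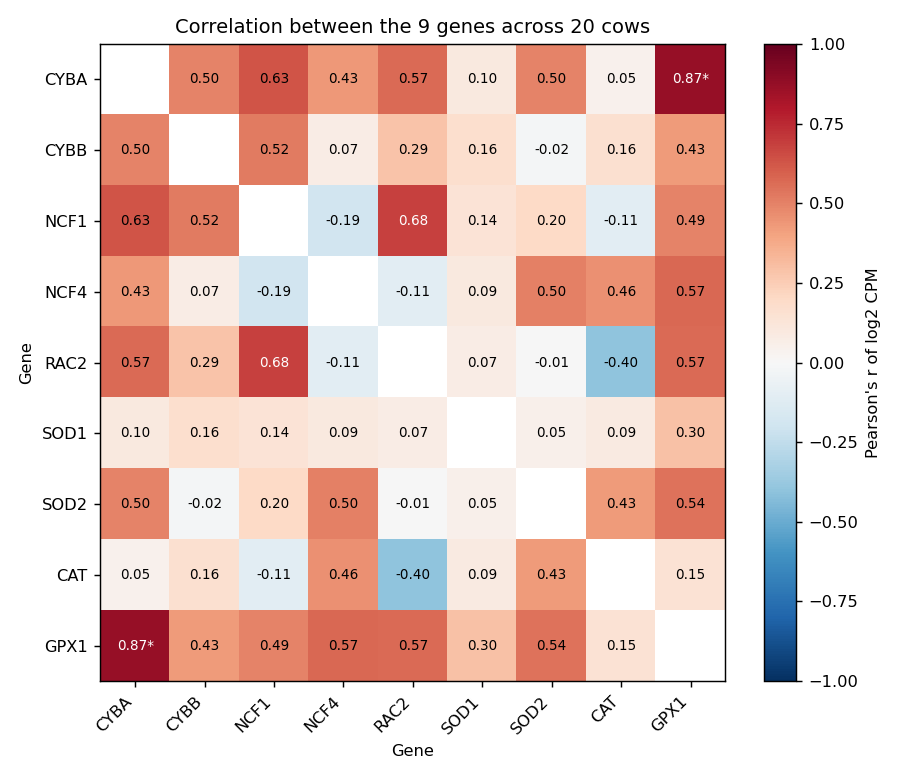
Pearson correlation of log2 CPM across 20 cows for each pair of the 9 genes, from -1 (blue) to 1 (red), with an asterisk where the pair was called. CYBA with GPX1 (0.87) is the 1 called pair, and the row of SOD1 is pale throughout.

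Linear relation to other genes differed in extent among the 9. At the adjusted threshold NCF4 was correlated with 6.88% of all genes, RAC2 with 6.3%, NCF1 with 1.19% and CAT with 0.486%. For CYBB, SOD1 and SOD2 the share was 0.0%, although 1191, 1355 and 2236 genes had an unadjusted permutation p under 0.05. The 2 genes nearest to CYBA were TNRC18 (0.91) and SPI1 (0.91), the latter encoding the myeloid transcription factor PU.1, and the one nearest to GPX1 was GNB2 (0.95), a G protein subunit. RAC2 was nearest to CDIPT (0.93), the enzyme that makes phosphatidylinositol, and RNPEPL1 (0.91). NCF1 was nearest to DEDD2 (0.88) and NDEL1 (0.87), and NCF4 to HIP1 (0.92) and MPP1 (0.90). CAT was nearest to ATP6V1A (0.82), a subunit of the vacuolar proton pump, and TFEC (0.81). These relations were called, with adjusted permutation p-values from 0.000974 to 0.0325, and without the 2 farthest cows the correlations lay between 0.79 and 0.92.

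For the other 3 genes the nearest genes were not called. CYBB was nearest to DDX39A (0.78) and PRR5L (0.76), both with an adjusted permutation p of 0.369. SOD1 was nearest to LOC100847115 (0.73) and COX6B1 (0.73), a subunit of cytochrome c oxidase, both at 0.348. SOD2 was nearest to SBNO2 (0.81) and JUNB (0.81), an AP-1 transcription factor, at 0.0651 and 0.0723. The 2 correlations of SOD2 were 0.82 without the 2 farthest cows, while those of SOD1 were 0.58 and 0.57.

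Several of the genes that supply NADPH were correlated with NCF1 and RAC2. Of the 8 genes on that list 4 were called as positively correlated with RAC2 and 3 with NCF1, against 4.18% and 0.934% of all genes called as positively correlated with them. With each of NCF1 and RAC2, 6 of the 8 values were positive, and those of IDH1 and ME1 were negative. The median correlation over the 8 was 0.60 for RAC2 and 0.65 for NCF1. For NCF4 the median was -0.12, and 1 gene, IDH1, was called.

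NADK, the kinase that makes NADP, gave 0.81 with NCF1 and 0.74 with RAC2 (adjusted permutation p = 0.0125 and 0.0135). Its rank correlations (Spearman) were 0.82 and 0.74 (permutation p = 3e-05 and 0.00032), and without the 2 farthest cows the Pearson correlations were 0.76 and 0.66.

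Of the later steps, TALDO1 was called with NCF1 (0.75, adjusted permutation p = 0.0269), and TKT and PGD with RAC2 (0.70 and 0.66, adjusted permutation p = 0.0220 and 0.0342). CYBB had correlations of the same sign, 0.65 with TKT and 0.56 with NADK, but no gene at all passed the adjusted threshold for CYBB. IDH1, the cytosolic isocitrate dehydrogenase, stood apart from the rest of the list. It was correlated with CAT at 0.78 (adjusted permutation p = 0.0325, 0.72 without the 2 farthest cows) and with NCF4 at 0.69 (adjusted permutation p = 0.0227, 0.54 without them), and its values were -0.23 with NCF1 and -0.38 with RAC2. Without the 56 kg calf's cow IDH1 gave 0.53 with NCF4.

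**Figure D4:**
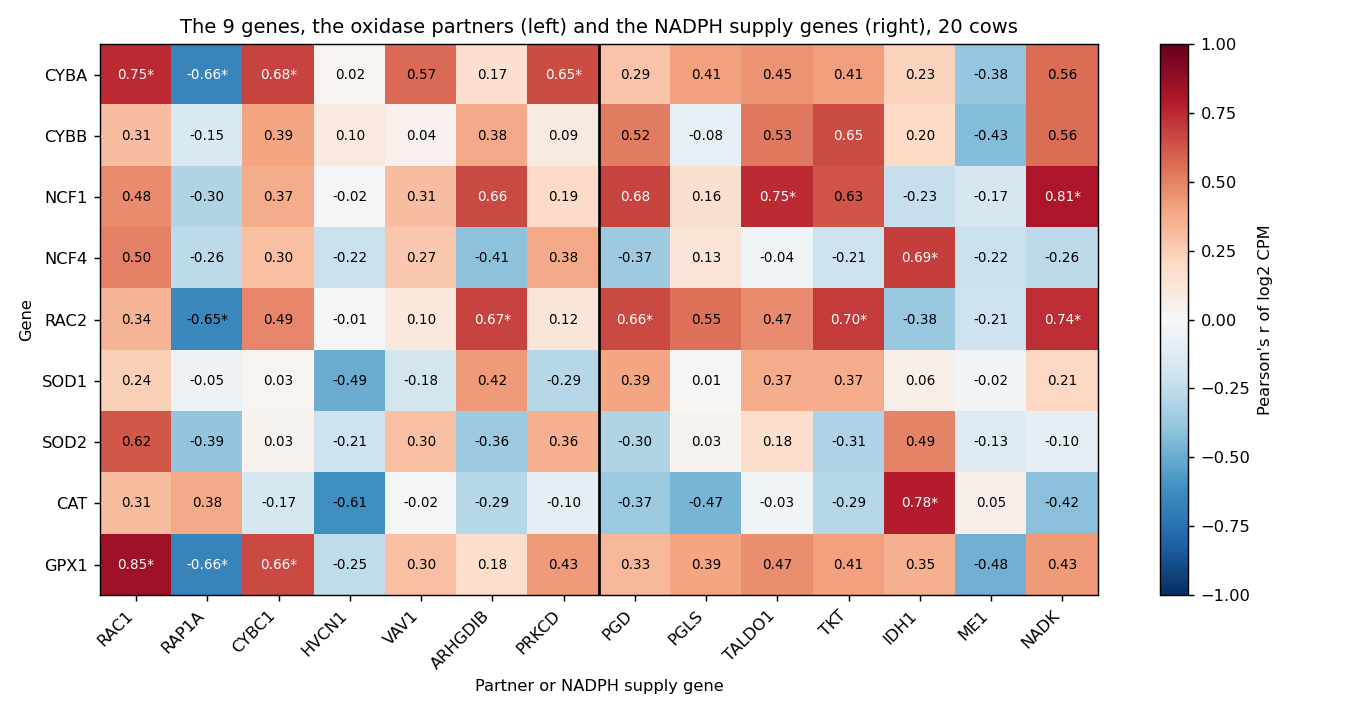
Pearson correlation of log2 CPM across 20 cows between each of the 9 genes (rows) and most genes of 2 lists (columns, oxidase partners left of the line and NADPH supply genes right of it), with an asterisk where the relation passed the adjusted threshold over all genes. The rows of NCF1 and RAC2 are red over PGD, TKT and NADK, the row of NCF4 is blue or pale there and red at IDH1 (0.69), and RAP1A is blue for CYBA, RAC2 and GPX1.

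RAC1, the widely expressed relative of RAC2, was called with GPX1 (0.85, adjusted permutation p = 0.000974) and with CYBA (0.75, adjusted permutation p = 0.00850) and had a correlation of 0.34 with RAC2. How reads that fit both genes were counted is not given in the sources used here. RAP1A, a small GTPase found bound to the membrane chains, was negatively correlated with GPX1 (-0.66), CYBA (-0.66) and RAC2 (-0.65), with adjusted permutation p-values of 0.0169, 0.0280 and 0.0414. Without the 2 farthest cows these were -0.43, -0.38 and -0.57, so the first 2 rest in part on those cows. CYBC1, the chaperone of the membrane chains, was called with CYBA (0.68) and GPX1 (0.66) and had a value of 0.39 with CYBB. Without the 2 farthest cows CYBC1 gave 0.55 with CYBA and 0.35 with GPX1. ARHGDIB, which holds Rac in the cytosol, was called with RAC2 at 0.67 (0.67 without the 2 farthest cows). PRKCD, a kinase of NCF1, was called with CYBA at 0.65 (0.45 without the 2 farthest cows) and gave 0.19 with NCF1.

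Of the 21 peroxide and thiol enzymes, 4 were called as positively correlated with GPX1 and 1 with NCF4, where 6.38% and 3.49% of all genes were, so the share for NCF4 was near that of all genes. GPX1 was correlated with PRDX5 (0.69), with GPX4 (0.65) and TXNRD2 (0.65), which are selenium enzymes as GPX1 is, and with PRDX2 (0.61). Without the 2 farthest cows these were 0.73, 0.68, 0.50 and 0.46. NCF4 was correlated with GPX4 at 0.70 (adjusted permutation p = 0.0143, 0.63 without the 2 farthest cows). HMOX1, the haem-degrading enzyme of the NRF2 list, was called with NCF4 at 0.83 (adjusted permutation p = 0.00343), with GPX1 at 0.68 and with CYBA at 0.63, and without the 2 farthest cows these were 0.67, 0.66 and 0.43. NOXA1 was called with NCF4 at 0.66 but gave 0.39 without the 2 farthest cows. Without the 56 kg calf's cow NCF4 gave 0.49 with NOXA1, 0.59 with GPX4 and 0.74 with HMOX1.

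Because whole blood holds many cell types, each gene was set beside marker scores, the mean standardised level of each of 10 marker lists with at least 3 measured genes. In such bulk samples, fewer cells of a type and less RNA per cell cannot be told apart. Of the 90 relations of the 9 genes with the 10 scores, 9 were called after Benjamini-Hochberg adjustment over the 90, and 18 had an unadjusted permutation p under 0.05. This adjustment was not over all genes, so a call here is easier to reach than a call for a pair. The share of all genes related to each score was not computed, so the count has no background beside it. CYBB, NCF1 and RAC2 had no called relation with any score. With the monocyte score they gave -0.04, -0.12 and -0.30. Without the 2 cows farthest from the median of that score these were 0.55, 0.51 and 0.30. For the neutrophil score the values were 0.10, 0.30 and -0.06, and 0.24, 0.56 and 0.21 without its 2 farthest cows. The low values thus rest in part on a few cows, and no p-value was computed without them. None of the 10 scores was related to BW after adjustment in the 19 cows, and the lowest unadjusted permutation p was 0.0208, for the interferon score (adjusted p = 0.171).

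NCF4 was correlated with the monocyte score at 0.81 (permutation p = 0.0001, adjusted p = 0.00810), with a Spearman correlation of 0.63 (permutation p = 0.00347). It was 0.59 without the 2 farthest cows and 0.63 without the 56 kg calf's cow, in which both NCF4 and the summed monocyte markers were lowest. For the marker scores, the 2 farthest cows are those farthest from the median of the score, not of the gene. Of the 7 monocyte markers 6 were measured, and their sum ran from 601 CPM to 1330 CPM over the cows. CAT was correlated with the same score at 0.70 (permutation p = 0.00018, adjusted p = 0.00810), with a Spearman correlation of 0.78 (permutation p = 5e-05) and 0.73 without the 2 farthest cows. The other enzyme of hydrogen peroxide removal, GPX1, gave 0.47 with this score (adjusted permutation p = 0.213). Its Spearman correlation was 0.62 (permutation p = 0.00373), and without the 2 farthest cows GPX1 gave 0.62, near the values of NCF4.

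SOD2 was called with 3 scores. It was correlated with the NF-kB target score at 0.72 (adjusted permutation p = 0.00922), with the neutrophil score at 0.68 (adjusted permutation p = 0.0167) and with the monocyte score at 0.63 (adjusted permutation p = 0.0296). The Spearman correlations were 0.67 (permutation p = 0.0016), 0.67 (permutation p = 0.00134) and 0.65 (permutation p = 0.00232), and without the 2 farthest cows the values were 0.64, 0.60 and 0.52. The neutrophil list had 8 of its 9 genes measured, with a sum between 2580 and 5102 CPM. All 8 NF-kB target genes, such as NFKBIA and IL1B, were measured, with a sum between 655 and 1090 CPM, and many of them are genes of neutrophils and monocytes. The part of cell makeup in the relations of SOD2 was not tested.

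The NF-kB target score was also correlated with CYBA (0.73, adjusted permutation p = 0.0087), GPX1 (0.65, adjusted permutation p = 0.0221) and NCF4 (0.62, adjusted permutation p = 0.0335). The Spearman correlations were 0.71, 0.75 and 0.54 (permutation p = 0.00074, 0.00027 and 0.0155), and without the 2 farthest cows the Pearson correlations were 0.72, 0.54 and 0.54. The relation of NCF4 was no longer called by rank, or without the 56 kg calf's cow, where it was 0.46, and 6 other single cows also ended its call, with values of 0.58 to 0.61. The relation of GPX1 was not called if the cow of the 50 kg calf was omitted (0.56), nor that of SOD2 with the monocyte score if that of the 46 kg calf was omitted (0.56).

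SOD1 differed from the others in that its called relation was with a lymphocyte score and was negative. It was correlated with the B cell score at -0.66 (permutation p = 0.00135, adjusted p = 0.0203) and by rank at -0.70 (permutation p = 0.00105), with -0.60 without the 2 farthest cows. The 8 B cell markers were all measured, and their sum ran from 776 to 1386 CPM. Omitting the cow of the 32 kg calf gave -0.61 and omitting that of the 47.4 kg calf gave -0.60, and neither was called. With the T cell score SOD1 gave 0.56 (adjusted permutation p = 0.0789) and by rank 0.54 (permutation p = 0.016). It gave 0.22 without the 2 farthest cows, so the linear value rests in part on them. No called relation was found between any of the 9 genes and the erythroid, platelet, T cell, natural killer cell, interferon or neutrophil granule score. The erythroid values for the red cell enzymes SOD1, CAT and GPX1 were -0.20, 0.32 and 0.30.

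**Figure D5:**
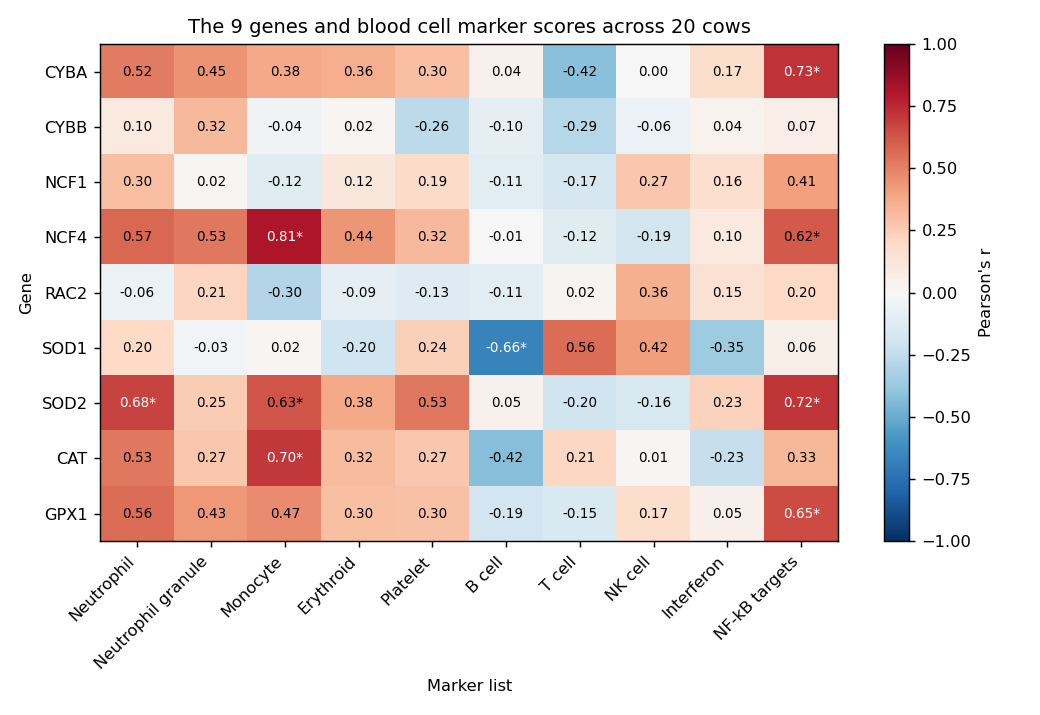
Pearson correlation across 20 cows between log2 CPM of each of the 9 genes (rows) and the score of each of 10 marker lists (columns), with an asterisk where the relation was called over the 90. Red asterisks stand in the monocyte and NF-kB columns for NCF4 (0.81 and 0.62) and SOD2 (0.63 and 0.72), and the blue cell with an asterisk is SOD1 with the B cell score (-0.66).

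IL5RA, the single eosinophil marker measured, ran from 20.2 CPM through a median of 58.8 CPM to 199.9 CPM. It was correlated with NCF1 at 0.62 and RAC2 at 0.56, and with NCF4 at -0.54 and CAT at -0.51. None of the 4 relations was called, with adjusted permutation p-values of 0.108, 0.0927, 0.110 and 0.255, and without the 56 kg calf's cow the correlation with NCF4 was -0.28. Whether eosinophil number has a part in these values was not tested.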

How the data were processed

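Per the labels and the paper, Trimmomatic, STAR 2.7.0b on the cattle genome and featureCounts (Subread 2.0.3) were run by the authors, who deposited raw counts per Entrez gene, without normalization. The labels name a SMARTer kit and the paper a Truseq kit for the libraries, and the strand setting is not given in the sources used here. No 2 libraries were repeats of each other (chi-square per degree of freedom at least 12.2 over 190 pairs).

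From the counts, edgeR 4.0.16 (R 4.3.3) gave TMM factors and, by its quasi-likelihood test, slopes on BW in 19 cows, where a gene reached 10 counts in 5 cows or more, with p-values adjusted by the Benjamini-Hochberg method over all genes tested. The cow left out of this fit carried the heaviest calf, which the study's methods also leave out. Gene names came from the NCBI table of assembly ARS-UCD2.0, in which all 37063 identifiers were found. The reads were aligned to a different build, so no coordinates are printed, and the table served for names and for which genes neighbour each other. Correlations used log2 CPM (prior count 2) of 16269 genes in 20 cows, with two-sided permutation tests (100000 resamples). A pair of the 9 was called when the larger of its 2 adjusted p-values was under 0.05. The 2 farthest cows were those farthest from the median of the gene of the 9, in a pair the gene named first. For marker scores they were those farthest from the median of the score. DESeq2 1.42.0, limma 3.58.1 with voom, other scalings and filters, covariates and leaving out each cow were alternatives. Other steps ran in Python 3.11.15 with pandas 2.3.3, numpy 2.4.6, matplotlib 3.10.9 and scipy 1.17.1.

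The 9 genes and all lists were chosen with earlier results of these data known. Genes named were the 9, from each pathway list the most abundant and the one with the smallest p for BW, and the 2 genes nearest to each of the 9. Other pathway genes, and IL5RA, were named after their values were seen. The BW and correlation steps were tested on simulated data with known answers, with 200 changed genes in each. At a slope of 0.06 log2 per kg edgeR recovered 73.5% of them, with 5.77% of its calls false. For DESeq2 the values were 79.5% and 11.7%. That slope was steeper than that of any of the 9 genes, so slopes of their size were not tested. The correlation step recovered 100% with 0.99% of calls false, but the built correlations were strong and weaker ones were not tested. Gene lengths and sequences were not used here, and some genes that met the rule are not reported here.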

Additional observations from a re-analysis of the deposited data

How the results depend on the processing

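None of the 9 genes was called for BW in any of the 12 alternatives or 19 leave-one-out fits. The count with an unadjusted p under 0.05 was 1 in the report, 0 with IL5RA as a covariate (chosen, like the monocyte score, once the data had been seen) and 0 to 1 when each cow was left out, the 0 being without the 56 kg calf's cow. Over all genes tested by edgeR this count was 2247 in the report, 1250 with IL5RA and 1605 without the 56 kg calf's cow. Between 2 and 7 of the 9 slopes were positive. Slopes near 0 turned sign, all in percent per 10 kg. CYBA was -0.158 with voom, -0.136 with library size only, -2.0 in all 20 cows, -1.40 with IL5RA and -1.55 to 1.42 with each cow left out. SOD2 was 0.0479 with DESeq2, 0.0628 with RLE size factors, 0.294 without a filter, 5.06 with the monocyte score, 5.05 with IL5RA, -6.89 in all 20 cows and -2.57 to 3.68 with each cow left out. GPX1 was 0.149, 0.15 and 0.338 in the first 3 of these, 0.386 with the neutrophil score, 2.97 with the monocyte score and -2.28 to 1.75 with each cow left out. With IL5RA as a covariate CYBB was -0.977, NCF1 -0.226, RAC2 -2.12, SOD1 -1.05, CAT 0.289 and ARHGDIB -2.07. SRXN1 was -1.72 with voom, -0.249 with library size only, -5.19 in all 20 cows, -2.84 with the log2 total count and -8.30 to 5.33 with each cow left out. The cause was not tested. SLC7A11 was called by DESeq2.

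The number of pairs called was 1 with the variance stabilizing transformation, library size only, Spearman, no filter and 19 cows. It was 4 on residuals from the neutrophil score and 1 to 2 with each cow left out. The residuals added CYBA with RAC2 (0.70), NCF1 with RAC2 (0.73) and RAC2 with GPX1 (0.73). In the report RAC2 with GPX1 gave 0.57, with 0.32 by rank and 0.33 without the 2 farthest cows. CYBA with RAC2 gave 0.57, 0.46 and 0.39 in turn, while NCF1 with RAC2 held at 0.68, 0.70 and 0.69. For the residuals, the share of all genes called and the values without the 2 farthest cows are not given here. On these residuals CYBA with SOD2 was 0.23, NCF4 with SOD2 0.19, NCF4 with CAT 0.23, NCF4 with GPX1 0.37 and SOD2 with GPX1 0.27. Relations with marker scores numbered 8 to 11 in the alternatives and 7 to 12 with each cow left out. Levels per length could not be computed because no lengths were used here. With 20 cows, a correlation between 2 of the 9 genes of 0.68 was still short of the adjusted threshold.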
